A study of Mus musculus with 2 samples.

Results

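Mouse genes of neutrophil alarm signalling and of the interleukin-1 system were followed across the cell classes of 2 single-cell RNA libraries. They were the alarmin genes S100a8 and S100a9, the stefin A genes Stfa1 and Stfa2, the chemokine gene Cxcl2, the interleukin-1 genes Il1b and Il1a, the antagonist gene Il1rn and the sensor gene Nlrp3. These 9 members, of 52636 genes in the count matrices, were chosen by name with their levels in both libraries known, and the alarmin-high barcodes below were selected on S100a8 and S100a9 themselves. Differences between the libraries are therefore descriptions and not tests. The level of each member in each class was set beside its level in alarmin-high barcodes. These are barcodes in which S100a8 plus S100a9 made up 1.5% or more of all unique molecular identifiers (UMIs, each standing for 1 captured transcript).

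S100A8 and S100A9 are small calcium-binding proteins that pair up as calprotectin, fill much of the cytosol of neutrophils, bind zinc and manganese, and act as alarm signals once outside the cell. Stefin A proteins inhibit cysteine cathepsins, and in the mouse their genes form a cluster of near copies that neutrophils transcribe strongly. CXCL2 draws neutrophils through the receptor CXCR2. Interleukin-1 alpha and beta bind one receptor, which the product of Il1rn occupies without signalling. The beta form is made as a precursor that caspase-1 cuts after a sensor such as NLRP3 assembles an inflammasome, and caspase-8 has been described as another protease able to cut it.

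Each library came from the intestine of 1 embryo of the C57BL/6 background at stage E18.5. The Casp8-mutant embryo was Casp8 C362A/C362A Mlkl -/-, so that both its caspase-8 alleles lacked the cysteine needed for catalysis, and it had no Mlkl, whose product executes necroptosis. The Mlkl-null embryo was Mlkl -/- with no Casp8 allele named, so both embryos lacked Mlkl. The tissue is named as whole intestine in the protocol but as small intestine elsewhere in the labels. With 1 embryo per genotype there was no replicate, no test was made, and the embryos also differed in Xist, so sex and genotype cannot be told apart. All intervals are 95% intervals and cover counting error only.

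The Casp8-mutant library held 1014 barcodes with a median of 1797.5 UMIs, and the Mlkl-null library 1478 barcodes with a median of 3654 UMIs. After filtering, 873 Casp8-mutant and 1435 Mlkl-null cells were kept, with medians of 1957 and 3707 UMIs. Classes were named "-like" from marker genes without the members. Epithelial-like cells numbered 527 and 1187, myeloid-like cells (Tyrobp, C1qa, Lyz2 and other markers) 112 and 61, and granulocyte-like cells 34 and 1 in the Casp8-mutant and Mlkl-null libraries. The epithelial-like cells of the libraries shared only the clusters c8.0 (14 Casp8-mutant and 6 Mlkl-null cells) and c15.0 (28 and 5 cells). The other Casp8-mutant cells lay in clusters c8, c15, c18, c19 and c21 and the other Mlkl-null cells in c2 to c5, c9 and c11. Levels are in counts per 1000000 UMIs (CPM) of the summed cells of a class, and cells were not treated as replicates.

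Promoter sequences are shown for the alarmin genes, for Cxcl2 and for Il1b, the members on which the results below turn: an alarmin pair found evenly over classes and 2 inflammatory genes with a myeloid-like part. They come from RefSeq for GRCm38.p6, run 5′ to 3′ on the gene's strand, and hold only bases upstream of the gene's start in both RefSeq and GENCODE M21. Capitals mark matches to the motifs searched on both strands in the 250 bases upstream of each RefSeq start.
S100a8, chr3:90668821-90668977, plus strand: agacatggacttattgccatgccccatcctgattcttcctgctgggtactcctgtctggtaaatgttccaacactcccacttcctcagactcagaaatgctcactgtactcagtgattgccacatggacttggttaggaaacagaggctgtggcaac
S100a9, chr3:90695722-90695971, minus strand: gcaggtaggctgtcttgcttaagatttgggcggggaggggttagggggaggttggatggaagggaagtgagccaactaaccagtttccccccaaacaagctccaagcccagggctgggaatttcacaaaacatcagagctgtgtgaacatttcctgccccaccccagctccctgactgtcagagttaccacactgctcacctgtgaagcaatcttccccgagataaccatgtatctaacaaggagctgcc
Cxcl2, chr5:90903649-90903870, plus strand: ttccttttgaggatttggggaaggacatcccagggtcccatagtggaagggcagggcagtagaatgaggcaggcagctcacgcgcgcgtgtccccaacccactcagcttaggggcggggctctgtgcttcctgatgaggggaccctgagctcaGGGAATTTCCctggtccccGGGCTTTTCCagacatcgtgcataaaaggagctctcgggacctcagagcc
Il1b, chr2:129371140-129371389, minus strand: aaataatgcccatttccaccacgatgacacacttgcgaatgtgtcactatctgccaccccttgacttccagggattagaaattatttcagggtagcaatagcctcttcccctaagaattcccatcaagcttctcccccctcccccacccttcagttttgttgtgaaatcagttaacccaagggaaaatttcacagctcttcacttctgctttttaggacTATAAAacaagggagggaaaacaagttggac
The motif of NF-kB, a factor that drives many inflammatory genes, was searched as GGGNN followed directly by TTTCC and was found in 464 of 32851 promoters (1.41%). Cxcl2 held it as GGGAATTTCC at bases 97 to 88 and as GGGCTTTTCC at bases 78 to 69 upstream of its start. Of the other members only Il1rn held it, at bases 51 to 42 upstream of the third of its RefSeq starts. The TATA box TATAAA (12.4% of promoters) lay at bases 31 to 26 in Il1b, 32 to 27 in Il1a and 30 to 25 in S100a8, there within bases that GENCODE transcribes and that are not printed. The AP-1 motif TGANTCA (6.75%) lay in Il1a and Il1rn, and the C/EBP motif TTNNGCAAT (1.93%) in 0 of the 9. The searched motifs did not overlap each other in these matches. A match is a description of the letters and not a site of binding.

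S100a8 (ENSMUSG00000056054, chromosome 3, 90668978 to 90670035, mm10) and S100a9 (ENSMUSG00000056071, chromosome 3, 90692632 to 90695721) reached very high levels in a few Casp8-mutant barcodes. Of the kept cells, 19 of 873 Casp8-mutant (2.18%, 1.32 to 3.38) and 1 of 1435 Mlkl-null (0.0697%, 0.00176 to 0.388) were alarmin-high. Among all deposited barcodes they were 33 of 1014 in the Casp8-mutant library (3.25%, 2.25 to 4.54) and 1 of 1478 in the Mlkl-null library. The alarmin-high barcodes were small: 14 of the 33 Casp8-mutant ones had fewer than 500 detected genes, and the median of the 33 was 583 genes and 1198 UMIs. In cells of at least 1000 genes the Casp8-mutant share was 0.826%. The threshold cut a thin tail, since the Casp8-mutant barcodes nearest to it held 1.54% inside and 1.46% and 1.43% outside. The Mlkl-null barcode held 1.597%, and the next ones 1.26% and 0.801%.

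The 19 kept Casp8-mutant alarmin-high cells, of which 12 were granulocyte-like, 3 epithelial-like, 3 myeloid-like and 1 erythroid-like, carried the other members to very different degrees. S100a8 had between 5 and 141 UMIs per cell with a median of 24, and S100a9 between 5 and 254 with a median of 42, by the choice of these cells. Stfa1 was seen in 18 of the 19 cells, Stfa2 in 17, Cxcl2 in 16 and Il1b in 14. Il1rn was seen in 13, Nlrp3 in 7 and Il1a in 5, with at most 3 UMIs of Nlrp3 or of Il1a in any of them. The Mlkl-null alarmin-high cell, also granulocyte-like, held 38 UMIs of S100a8, 11 of S100a9, 11 of Stfa1 and 0 of the other 6 members. Epithelial transcripts were present in the Casp8-mutant alarmin-high cells too, where the lectin genes Reg3b and Reg3g stood at 27.9% and 23.9% of their epithelial-like levels, the keratin genes Krt8 and Krt18 at 23.3% and 39.2%, and the adhesion gene Epcam at 76.6% (21 UMIs, in 36.8% of the cells).

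Granulocyte-like Casp8-mutant cells formed 2 groups that differed in the genes of granule formation. They were c15.1 and c18.3, split from clusters whose other cells were named epithelial-like or left unnamed. A group of 18 cells (with the 1 Mlkl-null cell) held 112 UMIs of Prtn3, 64 of Mpo and 45 of Elane, primary granule genes. These UMIs came from part of the group, 9 of the 18 cells for Prtn3 and 6 each for Mpo and Elane. The granulocyte name of its other cells is therefore less sure. S100a8 plus S100a9 made up a median of 0.303% of UMIs in the 18 cells. The other group of 16 cells had 0, 1 and 0 UMIs of these genes and was led by the stefin gene BC100530 (282 UMIs). It also held 132 UMIs of G0s2 and 72 of Retnlg, genes of later neutrophils. Some other granule genes went the other way. The group of 16 held 32 UMIs of Ngp, in 4 cells, and 30 of Camp, in 2 cells, against 1 UMI of each in the group of 18. Ltf had 7 UMIs in the 16 cells and 0 in the 18, and Lcn2 46 and 11. Over the 34 cells S100a8 stood at 6867 CPM, S100a9 at 10734 CPM, Stfa1 at 2426 CPM, Cxcl2 at 2435 CPM and Il1b at 626 CPM. The 12 alarmin-high cells among them, selected on the pair, carried most of this: the other 22 cells stood at 2324, 2471, 503, 869 and 199 CPM for the same genes in that order.

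Outside those few cells, S100a8 and S100a9 transcripts were found at a low and even level in nearly every Casp8-mutant barcode, whatever its class. At least 1 UMI of the pair was present in 1001 of 1014 Casp8-mutant barcodes (98.7%, 97.8 to 99.3) and in 102 of 1478 Mlkl-null barcodes (6.90%). After each kept cell was thinned to 1000 UMIs the shares were 94.04% of 856 Casp8-mutant cells and 1.81% of 1435 Mlkl-null cells. The median share of UMIs taken by the pair was 0.296% in Casp8-mutant barcodes (quartiles 0.214 to 0.403, highest 35.6) and 0 in Mlkl-null barcodes. One epithelial-like cluster, c15.3 (29 Casp8-mutant cells), had S100a8 among its 10 leading genes. Its median share was 0.302%, and its highest was 1.28%, in a cell with 189 UMIs of the pair. In the Mlkl-null library 3 cells, with 64, 49 and 46 UMIs, held 60.7% of the pair's 262 UMIs, and 91 of the 100 positive cells held exactly 1 UMI.

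**Figure D1:**
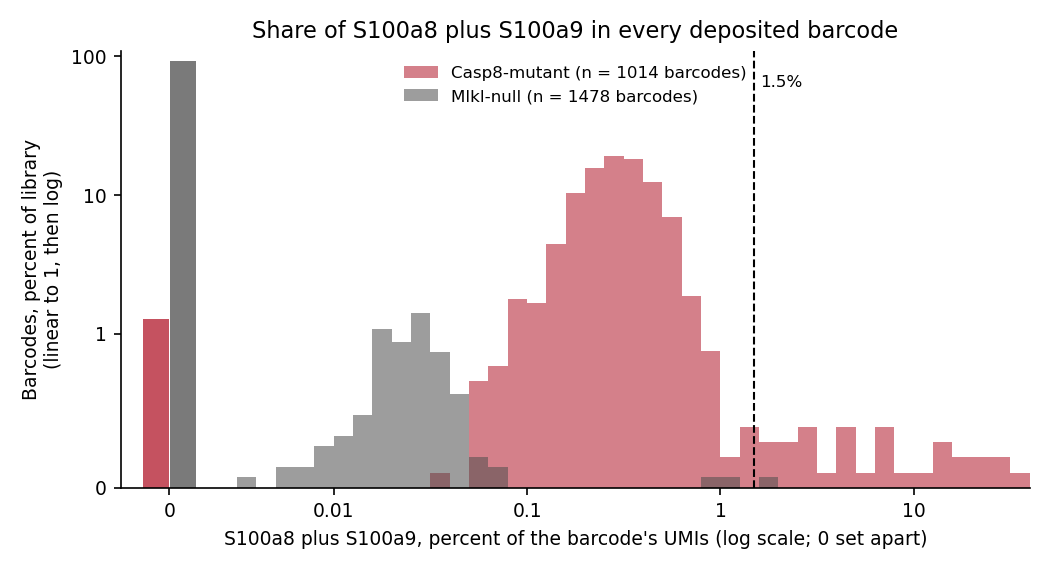
Distribution over all deposited barcodes of the percent of a barcode's UMIs that came from S100a8 plus S100a9 (log x axis, barcodes at 0 set apart; y axis, percent of the library's barcodes, linear to 1 and then log), for the Casp8-mutant (n = 1014) and the Mlkl-null library (n = 1478). The dashed line marks 1.5%. The Casp8-mutant barcodes gather around their median of 0.296%, and most Mlkl-null barcodes are at 0.

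The level of the pair differed little between Casp8-mutant classes once alarmin-high cells were left out. It was 2982 CPM (2901.5 to 3064) in epithelial-like, 3155 CPM (2907.5 to 3419) in myeloid-like, 2992 CPM in erythroid-like, 3113 CPM in fibroblast-like and 2900 CPM in lymphoid-like cells. Over these and the enteroendocrine or islet-like and unnamed cells, 7 groups in all, the highest level was 1.28-fold the lowest. Haemoglobin-dominated barcodes, in which haemoglobin genes made up 50% or more of UMIs and from which alarmin-high ones were left out, stood at 2932.5 CPM (2687 to 3194; 120 barcodes). Of the named classes with 10 or more cells, the remaining granulocyte-like cells alone were above this range, at 4795 CPM (4366 to 5255; 22 cells). This held for the summed cells and not for the typical cell. The median share of the pair per granulocyte-like cell was 0.316% (quartiles 0.276 to 0.402, highest 1.46). It was 0.293% in epithelial-like and 0.333% in enteroendocrine or islet-like cells. In the Mlkl-null library the pair stood at 24.1 CPM in epithelial-like and at 5.41 CPM in myeloid-like cells, and haemoglobin-dominated barcodes held 3 UMIs of it (20.8 CPM).

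**Figure D2:**
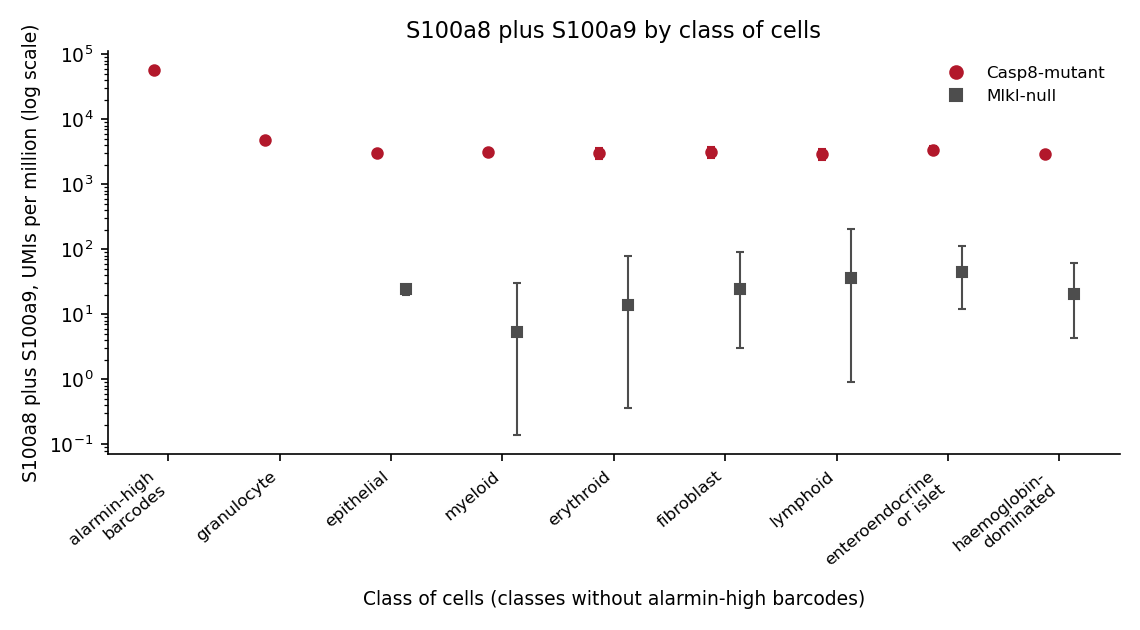
Level of S100a8 plus S100a9 in CPM (log axis) in alarmin-high cells and, without them, by cell class and in haemoglobin-dominated barcodes, where a library had at least 10 cells, with 95% Poisson intervals as bars (red circles, Casp8-mutant; grey squares, Mlkl-null). Casp8-mutant alarmin-high cells stand at 56691 CPM, and the Casp8-mutant groups right of granulocyte-like lie between 2900 and 3403 CPM, far above the Mlkl-null ones.

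Shares of cells with a UMI showed the same evenness. A UMI of the pair was seen in 98.7% of 524 Casp8-mutant epithelial-like cells (median 2310 UMIs), in 98.3% of 120 haemoglobin-dominated barcodes (median 1371.5 UMIs), in 96% of 25 erythroid-like cells (median 1574 UMIs) and in 92.3% of 26 fibroblast-like cells (median 1406 UMIs). The source of these transcripts in each class was not tested. The share in epithelial-like cells is therefore not read as a measure of expression by them. In 3 equal groups of Casp8-mutant epithelial-like cells by depth (medians 1306, 2317 and 5494.5 UMIs) the pair had 4.67, 7.33 and 17.8 UMIs per cell, or 3533, 3076 and 2829.5 CPM. Haemoglobin genes, which epithelial cells do not make, had 17.1, 26.9 and 61.7 UMIs per cell in the same 3 groups. Pair and haemoglobin transcripts thus both grew with a cell's total, with a slightly lower share in deeper cells.

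Some transcripts of other classes were also found outside their class in the Casp8-mutant library. Haemoglobin genes stood in Casp8-mutant epithelial-like cells at 4.33% and in fibroblast-like cells at 4.63% of their erythroid-like level. Mlkl-null epithelial-like cells held them at 0.605% of that library's erythroid-like level, and the erythroid-like levels were 242740 CPM in Casp8-mutant and 496260 CPM in Mlkl-null cells. Against haemoglobin-dominated barcodes, epithelial-like cells held them at 1.595% in the Casp8-mutant and 0.412% in the Mlkl-null library. Reg3b, an epithelial gene, stood at 13.3% of its epithelial-like level in both fibroblast-like and myeloid-like cells and at 13.5% in haemoglobin-dominated barcodes of the Casp8-mutant library. Epcam and Krt18 were spread in both libraries: in myeloid-like cells Epcam stood at 8.85% of its epithelial-like level in the Casp8-mutant and 10.1% in the Mlkl-null library, and Krt18 at 10.9% and 15.2%. The pair stood at 5.26% of its alarmin-high level in epithelial-like cells, 5.57% in myeloid-like cells and 5.17% in haemoglobin-dominated barcodes. These percentages hang on which cells count as alarmin-high: over all Casp8-mutant epithelial-like cells 5.37% became 15.3% in cells of at least 1000 genes, 8.5% with a threshold of 1% and 3.41% with a threshold of 3%. The part of such spread transcripts in the members' levels was not tested beyond these values.

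S100a8 and S100a9 did not keep one proportion to each other. Per 100 UMIs of the pair, S100a8 made up 37.1 (34.9 to 39.3) in the 19 alarmin-high cells, against 52.3 in epithelial-like cells, 52.0 in myeloid-like cells and 50.7 in haemoglobin-dominated barcodes without alarmin-high ones. In the 14 alarmin-high barcodes under 500 genes it made up 46.7. Epithelial-like cells therefore held S100a8 at 7.41% (6.82 to 8.06) and S100a9 at 3.99% of the alarmin-high level. The even classes thus resembled each other in this proportion and not the 19 kept alarmin-high cells summed. Of these 19 cells, the 2 richest in the pair held 34.6% of its UMIs. Alarmin-high barcodes had no common proportion, since those under 500 genes lay between the kept ones and the even classes.

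The stefin genes Stfa1 (ENSMUSG00000071562, chromosome 16, 36276951 to 36285373) and Stfa2 (ENSMUSG00000022902, chromosome 16, 36403992 to 36408457), which encode inhibitors of cysteine cathepsins, were sparse outside alarmin-high cells. In alarmin-high Casp8-mutant cells Stfa1 stood at 7693 CPM and Stfa2 at 3166 CPM. Epithelial-like cells held Stfa1 at 1.37% and Stfa2 at 2.96% of these levels, and haemoglobin-dominated barcodes at 1.16% and 2.29%. Per 100 pair UMIs Stfa1 had 13.6 (11.9 to 15.5) in alarmin-high cells, 3.55 in epithelial-like cells, 3.85 in myeloid-like cells and 3.05 in haemoglobin-dominated barcodes. Stfa1 was thus scarcer beside the pair in every one of these classes than in the alarmin-high cells. The alarmin-high level rests on few cells. Of the 19, the 2 richest in Stfa1 held 54.2% of its UMIs, and the 2 richest in the pair held 34.6% of the pair's UMIs. Transcripts of Stfa1 and of its neighbour BC100530 were 96.8% identical over their length, so the split of reads between them is uncertain.

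Between the libraries, Stfa1 had 187 UMIs in Casp8-mutant and 15 in Mlkl-null epithelial-like cells (107 and 2.81 CPM; ratio 37.0, 22.5 to 69.5). Of the 15, 12 were in 1 cell, a Mlkl-null barcode with 46 UMIs of S100a8 plus S100a9, and without that cell the ratio was 164 (64.2 to 932). Stfa2 had 167 UMIs in Casp8-mutant and 3 in Mlkl-null epithelial-like cells (ratio 146, 57.3 to 834), or 1 Mlkl-null UMI and a ratio of 341 (90.4 to 20286) without that cell. In myeloid-like cells Stfa1 had 37 Casp8-mutant and 0 Mlkl-null UMIs. With the 0 set to a floor of 3 counts this is at least 11.7-fold higher. Stfa2 had 30 and 0 UMIs there, at least 9.49-fold higher. Over all kept Mlkl-null cells there were 38 UMIs of Stfa1 and 4 of Stfa2, so both stefin genes were rare in that library.

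Cxcl2 (ENSMUSG00000058427, chromosome 5, 90903871 to 90905938), the neutrophil chemokine gene with the NF-kB matches printed above, was also found in every Casp8-mutant class, with a higher proportion to the pair in some. It stood at 7870.5 CPM in alarmin-high cells, and epithelial-like cells and haemoglobin-dominated barcodes held 5.95% and 5.32% of that, while myeloid-like cells held 10.8% (8.82 to 13.2). Per 100 pair UMIs it had 15.7 (14.6 to 16.9) in epithelial-like cells, 14.3 (11.1 to 18.2) in haemoglobin-dominated barcodes and 14.5 in fibroblast-like cells, close to the 13.9 of alarmin-high cells. Myeloid-like cells had 26.9 (22.5 to 32.1) and the 20 lymphoid-like cells 30.5 (19.4 to 46.7, from 29 UMIs). Thus Cxcl2 exceeded the common proportion to the pair in the summed myeloid-like and lymphoid-like cells by more than counting error. The lymphoid-like UMIs came from 10 of the 20 cells, and spread between cells is not in these intervals.

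The share of Casp8-mutant cells with a Cxcl2 UMI was 70.2% of epithelial-like cells at a median of 2310 UMIs. It was 42.5% of haemoglobin-dominated barcodes at 1371.5 UMIs and 52% of 25 erythroid-like cells at 1574 UMIs. At 1000 UMIs per cell it was 36.7% in epithelial-like, 36% in erythroid-like and 44.3% in myeloid-like cells. At equal depth the epithelial-like share was thus close to the erythroid-like one, which rests on only 25 cells. The source of Cxcl2 transcripts in epithelial-like cells was not tested. In myeloid-like cells Cxcl2 had 196 Casp8-mutant and 157 Mlkl-null UMIs (1006 and 849 CPM), a ratio of 1.18 (0.956 to 1.47), and in cells of at least 1000 genes, with 7 Casp8-mutant and 55 Mlkl-null cells left, it had 7 and 149 UMIs and a log2 ratio of -0.63. In epithelial-like cells it had 841 and 30 UMIs (482 and 5.62 CPM), a ratio of 84.4 (59.6 to 128). The epithelial-like ratio was therefore large and the myeloid-like ratio was not past counting error.

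**Figure D3:**
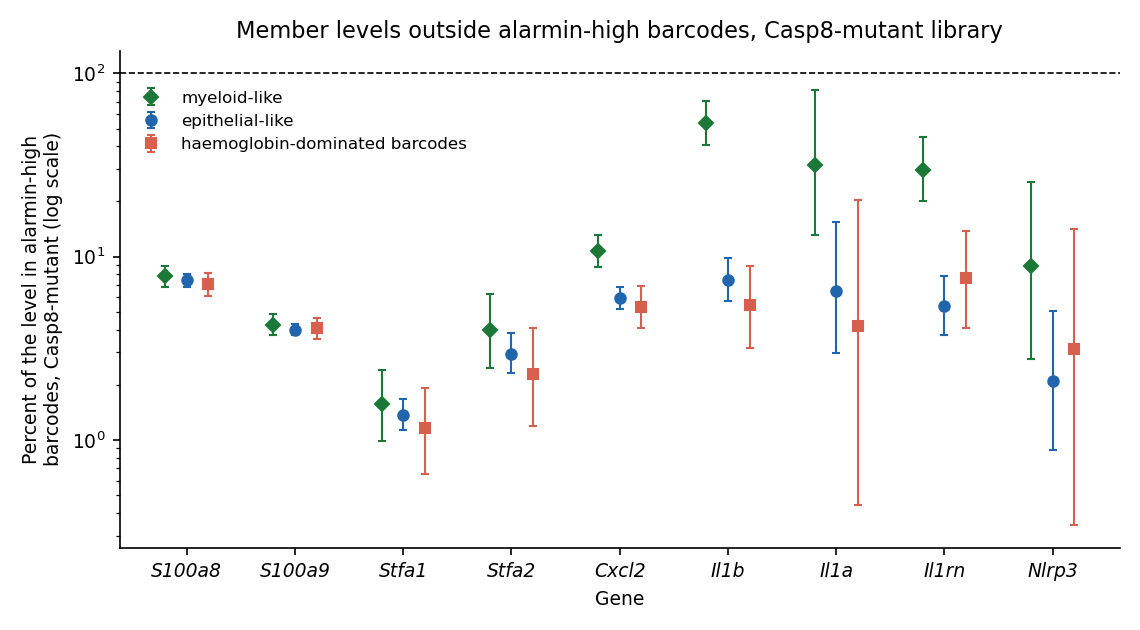
Level of each of the 9 members in Casp8-mutant myeloid-like cells, epithelial-like cells and haemoglobin-dominated barcodes, all without alarmin-high ones, as percent of its level in alarmin-high cells (log axis; dashed line, 100%), with 95% conditional exact intervals. Epithelial-like and haemoglobin-dominated values lie together for each member, and myeloid-like values are higher for Cxcl2, Il1b, Il1a and Il1rn. The myeloid-like value of Nlrp3 is higher too, but it rests on 6 UMIs and has a wide interval.

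Il1b (ENSMUSG00000027398, chromosome 2, 129364570 to 129371139), the gene of secreted interleukin-1 beta, stood at its highest class level outside alarmin-high cells in myeloid-like cells, in both libraries. Those cells held 143 of 171 Il1b UMIs in the Mlkl-null library, but 230 of 649 in the Casp8-mutant library, where the more numerous epithelial-like cells held 283. Casp8-mutant myeloid-like cells held 230 UMIs and Mlkl-null ones 143 (1180 and 773 CPM), a ratio of 1.52 (1.23 to 1.89), under the 2-fold size used here for a call. A UMI was seen in 68.8% of Casp8-mutant and 59.0% of Mlkl-null myeloid-like cells, at median depths of 1537.5 and 2825 UMIs. Without alarmin-high cells, Casp8-mutant myeloid-like cells stood at 53.3% (40.7 to 70.4) of the alarmin-high level, against 7.45% (5.74 to 9.77) in epithelial-like cells and 5.43% (3.17 to 8.92) in haemoglobin-dominated barcodes. Per 100 pair UMIs Il1b had 36.5 (31.1 to 42.6) in myeloid-like cells, 5.40 (4.77 to 6.09) in epithelial-like cells, 4.0 (2.46 to 6.18) in haemoglobin-dominated barcodes and 3.81 in alarmin-high cells.

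Il1b varied among the myeloid-like subclusters. In the Casp8-mutant library it stood at 2154 CPM in the 28 cells of c14.3, led by Ccl24, Il1b and Arg1, at 1827 CPM in subcluster c14.2 and at 302 CPM in c14.4. Most Mlkl-null myeloid-like cells, 42 of 61, lay in cluster c13, at 893 CPM. Within the subclusters of c14 that held cells of both libraries (61 Casp8-mutant and 19 Mlkl-null cells) Il1b had 102 and 25 UMIs, a ratio of 2.06. The size of the ratio thus depended on which myeloid-like cells were set side by side.

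In epithelial-like cells Il1b had 283 Casp8-mutant and 21 Mlkl-null UMIs (162 and 3.93 CPM), a ratio of 40.3 (26.5 to 67.7). A UMI was present in 38.7% of Casp8-mutant and 1.77% of Mlkl-null epithelial-like cells, or 18.1% and 0.505% at 1000 UMIs per cell. No Casp8-mutant epithelial-like cell held more than 5 Il1b UMIs. Without alarmin-high cells, its Casp8-mutant level was 161 CPM in epithelial-like cells, 133 CPM in fibroblast-like cells (5 UMIs) and 117 CPM in haemoglobin-dominated barcodes (21 UMIs). At 1000 UMIs per cell it was seen in 8% of 25 erythroid-like and 12% of 25 fibroblast-like cells. The epithelial-like level relative to the pair overlapped that of haemoglobin-dominated barcodes within counting error, while its thinned share was the highest of these.

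Il1a (ENSMUSG00000027399, chromosome 2, 129299610 to 129309972), the gene of the alpha form, which is active without cleavage and released from dying cells, was rare everywhere. Myeloid-like cells held 16 Casp8-mutant and 8 Mlkl-null UMIs (82.1 and 43.3 CPM; ratio 1.84, 0.767 to 5.12). Epithelial-like cells held 30 Casp8-mutant and 18 Mlkl-null UMIs (17.2 and 3.37 CPM; ratio 5.04, 2.75 to 9.71), the smallest epithelial ratio among members with 20 UMIs. Unlike the pair, and unlike Cxcl2 with 0.714, 1.15 and 2.81 UMIs per cell over the 3 depth groups, Il1a did not grow with depth in Casp8-mutant epithelial-like cells, with 12, 9 and 9 UMIs from shallowest to deepest (51.9, 21.6 and 8.24 CPM). Alarmin-high cells held 266 CPM of Il1a, of which myeloid-like cells without them held 31.7% (13.2 to 81.4).

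Il1rn (ENSMUSG00000026981, chromosome 2, 24336853 to 24351494), the receptor antagonist gene, had the largest ratio between the libraries in myeloid-like cells among Il1b, Il1a and Il1rn. Casp8-mutant myeloid-like cells held 72 UMIs and Mlkl-null ones 8 (369 and 43.3 CPM), a ratio of 8.10 (4.11 to 20.5). A UMI was present in 38.4% of Casp8-mutant and 6.56% of Mlkl-null myeloid-like cells, or 31.2% and 3.28% at 1000 UMIs. Within the shared c14 subclusters it had 38 Casp8-mutant and 0 Mlkl-null UMIs, but in the few cells of at least 1000 genes 0 and 8 UMIs. Per 100 pair UMIs Il1rn had 11.7 (9.004 to 15.01) in Casp8-mutant myeloid-like cells, above the 2.24 of epithelial-like cells, the 3.24 of haemoglobin-dominated barcodes and the 2.19 of alarmin-high cells. In epithelial-like cells it had 118 and 3 UMIs (67.6 and 0.562 CPM), a ratio of 104 (40.2 to 592), with at most 3 UMIs in a Casp8-mutant cell.

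Nlrp3 (ENSMUSG00000032691, chromosome 11, 59541568 to 59566956), the inflammasome sensor gene, went the other way in myeloid-like cells. It had 9 Casp8-mutant and 34 Mlkl-null UMIs (46.2 and 184 CPM), a ratio of 0.261 (0.106 to 0.535). A UMI was seen in 7 of 112 Casp8-mutant cells (6.25%) and in 26 of 61 Mlkl-null cells (42.6%). With each cell thinned to 1000 UMIs the shares were 5.50% and 13.1%. In the shared c14 subclusters Nlrp3 had 3 Casp8-mutant and 12 Mlkl-null UMIs, and 22 of the 34 Mlkl-null UMIs came from c13. In epithelial-like cells it had 14 and 3 UMIs, under the 20 UMIs needed for a call, and in all kept cells 39 and 40 UMIs, a ratio of 2.31 (1.45 to 3.69).

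**Figure D4:**
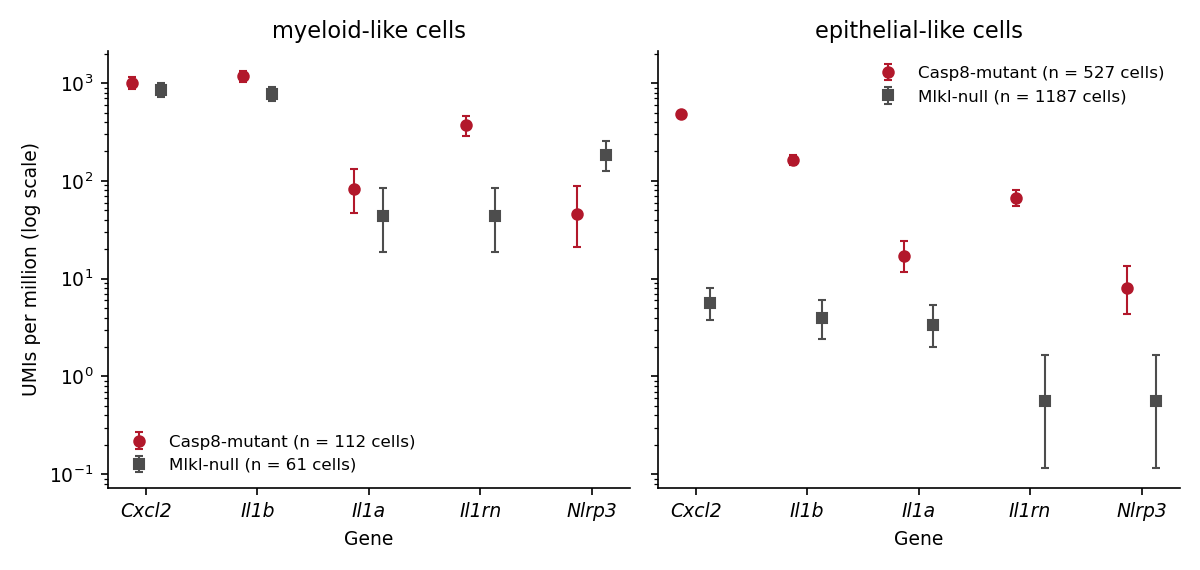
Levels in CPM (log axis) of Cxcl2, Il1b, Il1a, Il1rn and Nlrp3 in myeloid-like cells (left) and epithelial-like cells (right), with 95% Poisson intervals (red circles, Casp8-mutant; grey squares, Mlkl-null). In myeloid-like cells Il1rn is higher and Nlrp3 lower in the Casp8-mutant library, at 369 against 43.3 CPM and 46.2 against 184 CPM, and the other 3 lie closer together.

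Set against all genes, the members were a one-sided group in epithelial-like cells and a mixed one in myeloid-like cells. All 8 members with at least 20 UMIs were at least 2-fold higher in Casp8-mutant epithelial-like cells, where 16.6% of 13766 genes were higher and 18.9% lower by that size. The median log2 ratio of the 8 was 6.55, beside -0.18 over all genes, and without alarmin-high cells the count was also 8, with a median of 6.52. The choice of the members used these libraries, so nothing is read from that count. In myeloid-like cells 5 of the 9 members were higher (S100a8, S100a9, Stfa1, Stfa2 and Il1rn), Nlrp3 was lower, and Cxcl2, Il1b and Il1a were neither, where 13.1% of 2925 genes were higher and 12% lower. S100a8 had 384 Casp8-mutant and 0 Mlkl-null UMIs there, at least 121-fold higher with the same floor, and S100a9 had 344 and 1 (ratio 218, 58.2 to 12933). All 5 higher calls were lost in cells of at least 1000 genes, that of Il1rn with 0 and 8 UMIs and the others by falling under 20 UMIs. Stfa1 and Stfa2 also fell under 20 UMIs in the shared c14 subclusters, and Stfa2 after thinning, as did Nlrp3 in both of these.

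S100a8 in epithelial-like cells had 2748 Casp8-mutant and 67 Mlkl-null UMIs (1574 and 12.5 CPM; ratio 125, 98.5 to 162). S100a9 had 2568 and 62 UMIs (1471 and 11.6 CPM; ratio 126, 98.5 to 166). The Mlkl-null cell with 46 UMIs of the pair (1.26% of its UMIs) held 17 of the 67 and 29 of the 62 UMIs, and without it the ratios were 166 (127 to 227) for S100a8 and 234 (169 to 346) for S100a9. Of the 8 members Il1a had the lowest ratio, 5.04 with or without that cell. Over all kept cells all 9 members were higher in the Casp8-mutant library, where 17.3% of 15326 genes were higher by that size. Over all kept cells Il1b had 649 and 171 UMIs (ratio 8.99), Il1rn 282 and 11 (ratio 58.3) and Il1a 59 and 29 (ratio 4.79).

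In the small classes few members had 20 UMIs, and S100a8, S100a9 and Cxcl2 were the ones that did. All 3 were higher by the size rule in Casp8-mutant erythroid-like cells (42.9% of 538 genes higher, 6.69% lower), fibroblast-like cells (12.2% of 985 higher, 12% lower), enteroendocrine or islet-like cells (14% of 1070 higher, 10.6% lower) and lymphoid-like cells (15.1% of 523 higher, 8.8% lower). Cxcl2 had 17 Casp8-mutant and 11 Mlkl-null UMIs in fibroblast-like cells (452 and 137 CPM; ratio 3.25, 1.46 to 7.81), so the Mlkl-null fibroblast-like cells also held it. In lymphoid-like cells Cxcl2 had 29 and 3 UMIs, in erythroid-like cells 24 and 0, and in enteroendocrine or islet-like cells 25 and 0. Il1b had 7, 5, 7 and 1 Casp8-mutant UMIs in erythroid-like, fibroblast-like, enteroendocrine or islet-like and lymphoid-like cells, against 0, 1, 0 and 0 Mlkl-null UMIs.

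Other neutrophil genes went the way of the members in epithelial-like cells. These gene lists were chosen with earlier results of these data known. Of 22 genes of neutrophil granules and surface, 13 had 20 UMIs, and of these 11 were higher in the Casp8-mutant library and 1 lower, where 16.6% of all genes were higher and 18.9% lower. G0s2, an inhibitor of lipolysis abundant in neutrophils, had 361 Casp8-mutant and 9 Mlkl-null UMIs (116-fold) and stood at 5.03% of its alarmin-high level. Retnlg, a resistin-like gene of neutrophils, had 217 and 6 UMIs (102-fold) and stood at 6.27%, while Slfn4, a schlafen gene of myeloid cells, had 354 and 6 UMIs and stood at 26.4%. Of 6 stefin genes 5 were higher and Cstb, which is active in most tissues, was not (ratio 1.02). Gm5483 had 264 and 4 UMIs (180-fold), and BC100530 215 and 16 UMIs, at 1.56% of its alarmin-high level.

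Relatives of the alarmins and of interleukin-1 were more mixed. Of 12 other S100 genes 9 were measured in epithelial-like cells, with 5 higher and 3 lower. S100a6, a growth-associated calcium-binding protein gene, had 3241 Casp8-mutant and 2052 Mlkl-null UMIs (4.83-fold), S100a10, the annexin A2 partner gene, was 2.16-fold higher, and S100a1 had a ratio of 0.356. Among other interleukin-1 family ligands and binders, Il18bp, the interleukin-18 binding protein gene, had 54 and 2 UMIs (66.7-fold), and Il18, an epithelial cytokine gene, had a ratio of 0.719. Of the receptors, the decoy receptor gene Il1r2 had 49 and 7 UMIs (20.2-fold), while Sigirr, a negative regulator in epithelium, had a ratio of 0.584. Of 9 measured signalling genes 2 were higher, 1 was lower and 6 were neither, where 16.6% of all genes were higher and 18.9% lower. Ikbkb, a kinase gene of NF-kB activation, was 3.64-fold higher, and the receptor kinase genes Irak1 (ratio 1.003) and Irak2 (ratio 0.569) were among those called neither.

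Of 12 measured inflammasome genes in epithelial-like cells 1 was higher (Casp4, 2.60-fold), 3 were lower and 8 were neither, beside the same 16.6% higher and 18.9% lower over all genes. Pycard, the inflammasome adaptor gene, had a ratio of 0.930, the pore gene Gsdmd 1.25 and Nlrp6 0.308. Of 4 measured neutrophil and monocyte attractants 3 were higher. Ccl4 had 218 Casp8-mutant and 17 Mlkl-null UMIs (38.2-fold) and Ccl3 148 and 9 (47.8-fold), both known as macrophage chemokine genes, whereas Cxcl1, the close relative of Cxcl2, had a ratio of 1.48. In myeloid-like cells none of the 4 measured attractants passed 2-fold, where 13.1% of 2925 genes were higher and 12% lower. Ccl4 had 161 Casp8-mutant and 156 Mlkl-null UMIs in these cells, and Ccl3 59 and 57. Il1r2 there had 42 Casp8-mutant and 44 Mlkl-null UMIs (ratio 0.906), and Mmp9, a granule metalloprotease gene, had 5 and 71 UMIs (ratio 0.0730).

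Genes whose level over the 17 class sums of both libraries was most like that of the pair or of Il1b were found by Pearson's correlation of log2(CPM + 10) over 11528 genes. The class sums share 2 libraries, so this is a description. For the pair they were 2010005H15Rik (0.983), Gm5483 (0.983), Xist (0.976), Retnlg (0.972) and Wfdc21 (0.971), and the place of Xist shows how far this likeness follows the library. For Il1b they were the lipopolysaccharide co-receptor gene Cd14 (0.959), the urokinase receptor gene Plaur (0.949), Ccl4 (0.921), Il1r2 (0.917) and Trim30a (0.901). The lists did not split cleanly into genes of a library and genes of a class. Of the genes most like Il1b, Ccl4 and Il1r2 were also higher in Casp8-mutant epithelial-like cells, as given above. Of those most like the pair, Retnlg stood at 1982 CPM in Casp8-mutant alarmin-high cells against 124 CPM in epithelial-like cells.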

How the data were processed

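Droplet libraries (10x Chromium 3′ v2, per the labels) from 1 Casp8-mutant and 1 Mlkl-null embryo were grouped by genotype label. The deposited values were raw UMI counts per gene and barcode, for the mm10 genome, with Cell Ranger 3.0.2 and Seurat 3.0 listed per the submitters' processing notes, and with roles and barcode filter not given in the sources used here. Of 52636 gene IDs, 52403 had a GENCODE M21 symbol. All per-sample columns were used. The 2 libraries shared 2 barcode sequences.

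Barcodes with fewer than 500 genes (139 Casp8-mutant, 39 Mlkl-null) or over 20% mitochondrial UMIs (0 and 0) were removed, as were 2 and 4 Scrublet doublets. Undetected doublets may remain. With scanpy 1.11.5 (Python 3.11.15), the 2000 most variable genes per library, without members and sex-linked genes, gave 30 components, 15 neighbours and Leiden clusters at resolution 1, and clusters of 50 or more cells were split once more. Both libraries were clustered together without integration. Names needed 3 detected markers and no lead of another class among the 10 leading genes.

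UMIs were summed per class and library. Ratios are Casp8-mutant over Mlkl-null with 0.5 UMI added to each sum. Intervals (scipy 1.17.1) are Poisson, Clopper-Pearson or conditional exact. A call needed a 2-fold ratio and 20 UMIs over both libraries. The calls were tried on simulated Poisson counts. These had no added spread between cells or embryos, so the trial cannot show how the calls fare under such spread. Members, gene lists and markers were chosen with earlier results of these data known. All members were named, and of each list the 3 genes with most UMIs, plus Casp4, picked after its value was seen. Motifs were searched in RefSeq promoters (GRCm38.p6). Alternatives changed the cell filter, clustering, naming, doublets, scaling, depth and thresholds.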

Additional observations from a re-analysis of the deposited data

Results flagged for a closer look

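Nlrp3 was the 1 member that was higher in Casp8-mutant epithelial-like cells and lower in Casp8-mutant myeloid-like cells, with counting intervals on either side of 1. Its myeloid-like ratio was 0.261 (0.106 to 0.535), from 9 Casp8-mutant and 34 Mlkl-null UMIs. Its epithelial-like ratio was 12.7 (3.98 to 77.5), from 14 Casp8-mutant and 3 Mlkl-null UMIs, fewer than the 20 UMIs needed for a call. The difference between the classes was not tested, since each genotype had 1 embryo.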

How the results depend on the processing

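No paired analysis was possible because each genotype had 1 library and no result comes from a test. The log2 ratio of S100a8 plus S100a9 in epithelial-like cells was 6.97, with 6.58 in cells of at least 1000 genes and 7.63 with the members kept among the clustering genes, and 7.605 without the Mlkl-null epithelial-like cell richest in the pair, an alternative chosen after seeing the data. The percent of Casp8-mutant alarmin-high cells was 2.18, and 0.826 in cells of at least 1000 genes. The pair in all Casp8-mutant epithelial-like cells stood at 5.37% of its alarmin-high level, at 3.75% with no cell filter, 15.3% with at least 1000 genes, 8.5% with a 1% threshold and 3.41% with a 3% threshold, and scaling by median of ratios gives no such value within 1 library. The log2 ratio of Il1b in myeloid-like cells was 0.61, with 0.21 when classes came from marker shares, and 1.04 in the c14 subclusters with cells of both libraries, likewise chosen after seeing the data. The count of members at least 2-fold higher in epithelial-like cells was 8, or 9 with no minimum count. Among 204 values for single members 184 stayed within the counting interval of the main value and 18 moved outside it with the same sign. The other 2 turned, both in cells of at least 1000 genes, where only 7 Casp8-mutant and 55 Mlkl-null myeloid-like cells were left. There the log2 ratio of Cxcl2 was -0.63 (7 and 149 UMIs) and that of Il1rn -0.40 (0 and 8 UMIs). The myeloid-like log2 ratio of Nlrp3 stayed negative in all 12 alternatives, between -2.80 and -1.39, and that of Stfa1 in epithelial-like cells, 5.21, ran from 4.12 to 7.36. The depth of the Casp8-mutant library limits genes such as Il1a and Nlrp3, which few UMIs represent.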

Other observations

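Alarmin-high barcodes removed for having fewer than 500 genes differed in their cytokine transcripts from those kept. Per 100 UMIs of S100a8 plus S100a9, the 14 removed Casp8-mutant barcodes had 5.28 UMIs of Cxcl2, 1.02 of Il1b and 1.11 of Il1rn, against 13.9, 3.81 and 2.19 in the 19 kept cells. Stfa1 was alike, with 14.6 in the removed barcodes and 13.6 in the kept cells. Of the 33 alarmin-high barcodes 6 had more than 20% of their UMIs from haemoglobin genes, 1 of them among the 19 kept cells.

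Casp8-mutant myeloid-like cells of low depth were richer in Il1b and Il1rn than deeper ones. In 3 groups by depth, from shallow to deep, Il1b stood at 2270, 1007 and 735 CPM and Il1rn at 555.5, 504 and 205 CPM, while S100a8 plus S100a9 stood at 3478, 3165 and 3005 CPM. No cause of these patterns was tested.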
